A study of Mus musculus with 18 samples.

Results

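The comparison is of germinal vesicle (GV) oocytes from mice of 12 months (GV-12m, 3 oocytes) with GV oocytes from mice of 6 weeks (GV-6wk, 3 oocytes). The members were all oocytes whose source label is GV-12m or GV-6wk, which are 6 of the 18 single-oocyte libraries of the series. Both groups are labelled as wild type C57BL/6 oocytes that met no mesenchymal stem cells (MSC), so age is the labelled difference. The other libraries are metaphase II (MII) oocytes of the same ages, matured in vitro without MSC (IVM-MII) or beside them (MSC-IVM-MII), with 3 oocytes in each group. The labels name no animal for any oocyte, and the title prefixes O01, O04 and O05 (12 months) and Y01 and Y03 (6 weeks) are shared by no pair of ages, so whatever they stand for cannot be told apart from age. Each group therefore counts as 1 sample: no test was possible, and each ± is the SD over 3 oocytes, which says nothing of the spread between animals.

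A GV oocyte is arrested in prophase of the first meiosis, with its chromosomes inside a large nucleus called the germinal vesicle. While it grows it stores messenger RNA, and once full-grown it makes almost no new RNA, so meiotic maturation and the first steps of the embryo run on the stored messages. In female mice oocyte number and quality fall with reproductive age, and errors in chromosome segregation become more frequent. Per the labels' protocols, the nucleus was spun out of the lysed oocyte and the supernatant was sequenced, so the values describe mainly cytoplasmic RNA.

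Of the 47069 genes listed, 12037 had enough counts to be measured. A level is given in CPM, a gene's read count relative to the scaled total of its library, so it does not tell how much RNA an oocyte held. A difference is the mean of log2(CPM + 1) in GV-12m minus that in GV-6wk oocytes, which understates the difference of weakly expressed genes, and a fold is a ratio of group mean CPM. At least 2-fold higher (a difference of 1 or more) were 1138 genes, or 9.45% of those measured, and at least 2-fold lower were 514, or 4.27%. In 442 genes (3.67%) all GV-12m oocytes lay above all GV-6wk oocytes, and in 422 genes (3.51%) all lay below. Such genes are called separated here. The median difference over all genes was 0.12, and 58.6% of genes had a difference above 0.

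The oocytes of 1 age were not alike, and GV-12m oocyte 3 stood apart from the rest. Its library held 2611 CPM of 29 cumulus and granulosa cell genes, against 239 and 108 CPM in GV-12m oocytes 1 and 2 and 106, 78.8 and 276 CPM in the GV-6wk oocytes. Of these genes 16 were highest in it, among them Inha at 915 CPM and Gja1 at 672 CPM, whereas Ptx3, Pgr and Nr0b1 were at 0 in all 6 libraries. Other members went the other way. Cyp19a1 was lowest in it, at 16.2 CPM against 19.8 to 32.9 CPM in the other oocytes. Cyp11a1 had 0.151 CPM and Hsd3b1 15.7 CPM in it, against 40.4 and 44.7 CPM in GV-12m oocyte 1. GV-12m oocyte 3 also held 1298 CPM of the nuclear RNA Malat1, against 31.3 and 36.0 CPM in the other GV-12m oocytes and 9.65, 50.2 and 14.2 CPM in the GV-6wk oocytes. Its 14 oocyte marker genes summed to 14305 CPM, below the 48102 to 78963 CPM of the other GV-12m oocytes and the 33383 to 49771 CPM of the GV-6wk oocytes, though all 14 were detected in every oocyte. The part of these values in the differences below was not tested. Without GV-12m oocyte 3, 919 genes were at least 2-fold higher and 861 at least 2-fold lower.

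**Figure D1:**
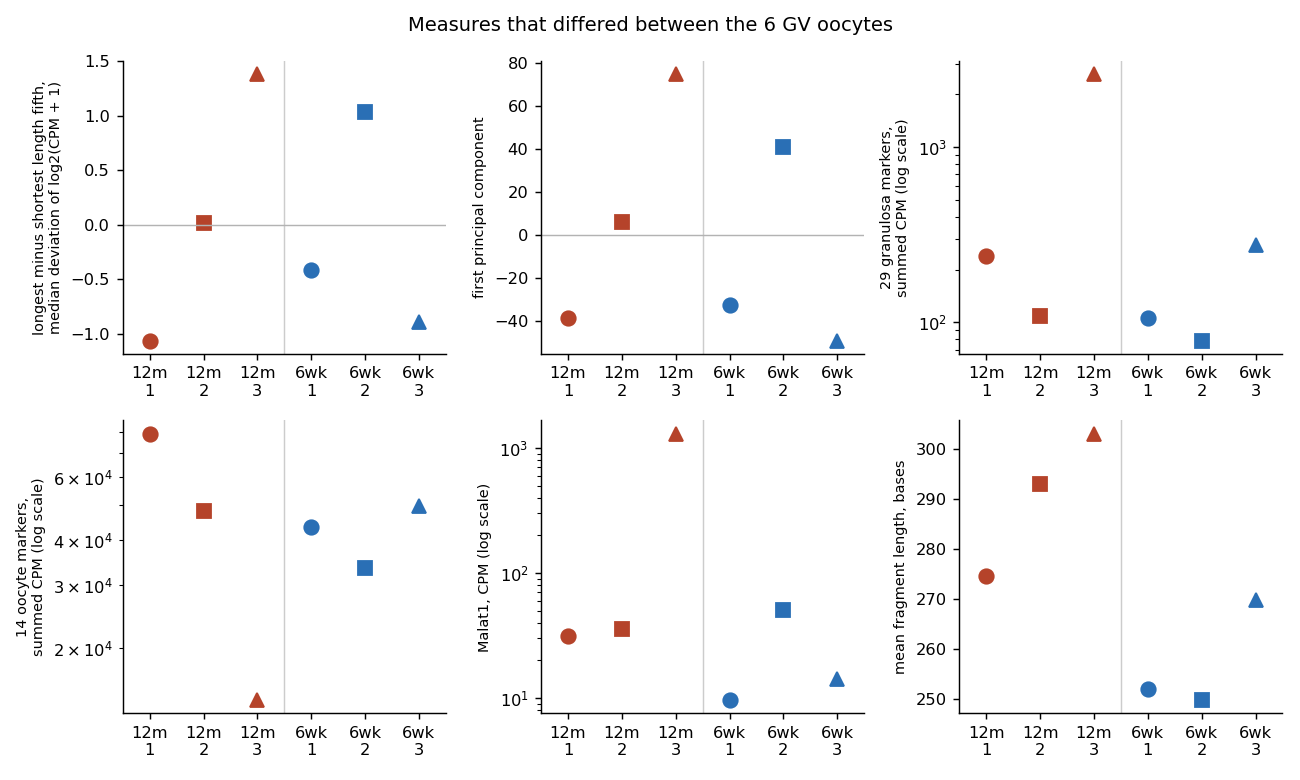
Each panel gives 1 value per GV oocyte, GV-12m on the left: the length gradient, the first principal component of the 2000 most variable genes, summed granulosa and oocyte markers and Malat1 in CPM on log axes, and inferred mean fragment length in bases. On the first component the GV-12m oocytes lie at -38.6, 5.71 and 74.6 and the GV-6wk oocytes at -32.9, 40.5 and -49.3, so it does not part the ages.

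Totals ran from 4679473 to 9193559 counts in GV-12m oocytes and from 3096673 to 3895017 counts in GV-6wk oocytes. More genes were detected in GV-12m oocytes, 15537 ± 724 against 14005 ± 1084, and after thinning every library to 3096673 counts the numbers were 14641 ± 892 and 13820 ± 960 (SD, n = 3 each). Pearson correlations of log2(CPM + 1) were 0.770 to 0.9195 within GV-12m, 0.847 to 0.927 within GV-6wk and 0.789 to 0.927 between the ages, so the ranges overlapped.

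Among separated protein-coding genes that averaged 20 CPM or more at 1 age, the largest difference on the higher side was that of Bicd1, an adaptor that links cargo to the dynein motor. Its level was 23.8, 17.9 and 18.7 CPM in GV-12m oocytes, against 0 CPM in each GV-6wk oocyte, or 374 counts against 0. That is at least 23.3-fold higher against a floor of 3 counts per library, which covers counting error only. Cgref1, which encodes a protein with EF-hand domains (chr5:30933143-30945591, GRCm38, minus strand), had 44.9, 32.1 and 8.76 CPM in GV-12m oocytes, against 4.29, 0.485 and 1.06 CPM in GV-6wk oocytes. The groups did not overlap, and the difference was 3.28, or 14.7-fold. The zinc finger gene Zfp940 had 45.3, 45.9 and 15.4 CPM in GV-12m oocytes, against 2.41, 5.58 and 1.77 CPM in GV-6wk oocytes, a difference of 3.05. In both of these genes GV-12m oocyte 3 was the lowest of its age.

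The other leading genes on the higher side have varied roles. Snf8, a subunit of the ESCRT-II complex that sorts membrane proteins, had 35.3, 41.4 and 29.2 CPM in GV-12m oocytes, against 11.5, 4.12 and 8.14 CPM in GV-6wk oocytes (4.45-fold). Exoc1, a subunit of the exocyst that tethers secretory vesicles, had 51.5, 42.6 and 51.8 CPM in GV-12m oocytes, against 16.6, 7.04 and 12.7 CPM in GV-6wk oocytes (difference 1.99). In CPM both genes were even across the GV-12m oocytes and separated from GV-6wk. In deposited TPM, an alternative unit, both stayed separated, but Exoc1 ran from 11.06 to 37.81 TPM in GV-12m oocytes. Ing4, a chromatin reader, had 52.9, 18.1 and 23.6 CPM in GV-12m oocytes, against 9.92, 4.61 and 10.6 CPM in GV-6wk oocytes (difference 1.72). Pbrm1, a subunit of a chromatin remodelling complex, had 9.55, 13.3 and 44.4 CPM in GV-12m oocytes, against 1.07, 7.28 and 1.06 CPM in GV-6wk oocytes (difference 2.53). Pbrm1 owed most of its GV-12m mean to oocyte 3, and Ing4 most to oocyte 1. Also among the 15 were the signalling GTPase Hras (difference 1.69), the kinase gene Alpk2 (1.85), Ptov1 (1.87), Tmem214 (1.49) and the transcription factor gene Gcm2 (1.43). The elongation factor gene Eef2 and the RNA-binding protein gene Pcbp2 had 224 and 194 CPM in GV-12m oocyte 3, and their differences of 1.37 each were 0.72 and 0.96 without it.

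On the lower side the largest difference among such genes was that of Dnajb14, which encodes a chaperone of the endoplasmic reticulum with a J domain. It had 45.5, 34.9 and 50.01 CPM in GV-12m oocytes, against 582, 100.4 and 391 CPM in GV-6wk oocytes. The GV-12m values were close together and all below the lowest GV-6wk value, and the difference was -2.70, or 8.22-fold lower. Sephs2, which makes the selenium donor for selenoproteins, had 19.1, 43.6 and 51.4 CPM in GV-12m oocytes, against 219, 166 and 109 CPM in GV-6wk oocytes (difference -2.14). Psmd5, a chaperone of proteasome assembly, had 49.3, 138 and 68.0 CPM in GV-12m oocytes, against 403.5, 291 and 227 CPM in GV-6wk oocytes (difference -1.93). The groups did not overlap in either gene.

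The other leading genes on the lower side also have varied roles. Wtap, a subunit of the enzyme complex that writes N6-methyladenosine on RNA, had 23.3, 54.2 and 54.7 CPM in GV-12m oocytes, against 241, 207 and 78.9 CPM in GV-6wk oocytes (difference -1.92). Orc5, a subunit of the origin recognition complex, had 60.2, 99.1 and 152 CPM in GV-12m oocytes, against 463, 555 and 159.6 CPM in GV-6wk oocytes (difference -1.82). GV-6wk oocyte 3 was the lowest of its age in both, and in Orc5 it lay just above GV-12m oocyte 3. Tacc3, which stabilises spindle microtubules, had 177, 421 and 405 CPM in GV-12m oocytes, against 1865, 1360.1 and 646 CPM in GV-6wk oocytes. Mkln1 (difference -1.93), the V-ATPase accessory gene Atp6ap1 (-1.98), the interleukin receptor subunit gene Il1rap (-1.97), the calcium-binding protein gene Calb1 (-2.47), the prolactin family gene Prl8a2 (-2.50) and the GPI-anchor enzyme gene Pigs (-1.83) were also among the 15, with B3galnt1 and with Astl and Oog4, whose values follow below. In B3galnt1 the difference of -1.85 rested on GV-12m oocyte 1 at 0.444 CPM, and it was -0.60 without that oocyte. Of the 15 leading genes each way, 12 higher and 14 lower ones stayed past 2-fold under all 16 alternatives. These genes were chosen for large differences, and the alternatives that change only the filter cannot alter their values.

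**Figure D2:**
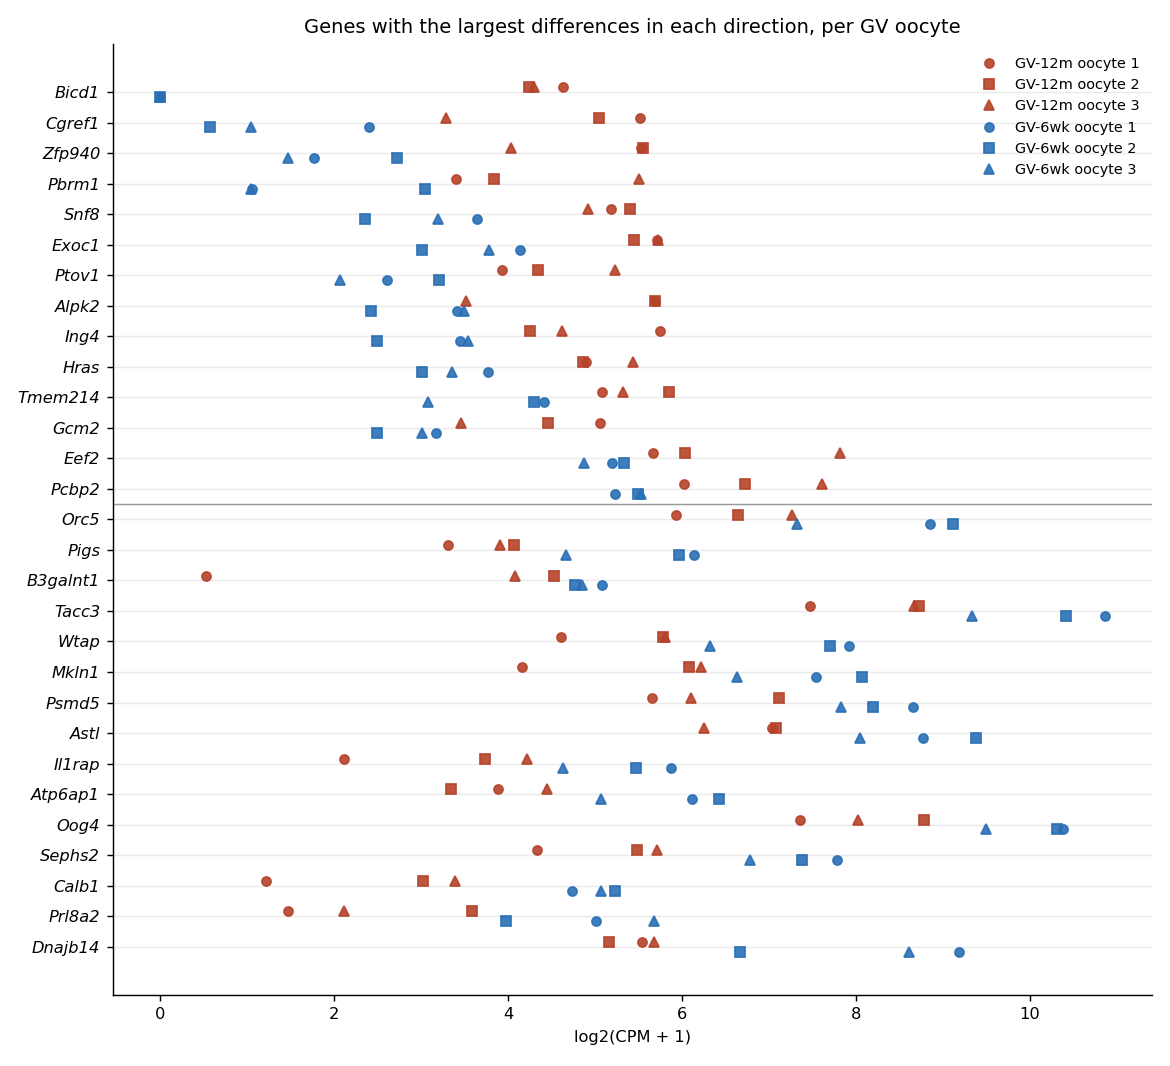
Each row is a gene and each point an oocyte, with the level as log2(CPM + 1), for 14 of the 15 leading genes higher and the 15 lower in GV-12m. By the rule that chose them the ages do not overlap in any row, and Bicd1 lies at 0 in all 3 GV-6wk oocytes.

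Of the egg-coat genes Zp1, Zp2 and Astl were lower in GV-12m oocytes. The zona pellucida is the glycoprotein shell around the oocyte, and 5 of 5 measured genes of its list had a difference below 0, with a median of -1.07. They include Zp3r, which is known as a sperm protein gene and stayed under 10 CPM in every GV oocyte. Zp1, which cross-links the zona filaments, had 1215, 938 and 578 CPM in GV-12m oocytes, against 2292, 1798 and 1471 CPM in GV-6wk oocytes. Zp2, to which sperm bind, had 263, 398 and 359 CPM in GV-12m oocytes, against 862, 1101 and 334 CPM in GV-6wk oocytes (difference -1.02). Zp1 was separated, while in Zp2 GV-6wk oocyte 3 lay among the GV-12m oocytes. Astl encodes ovastacin, the protease that cleaves ZP2 after fertilization, and had 129.98, 134 and 75.5 CPM in GV-12m oocytes, against 437, 667 and 263 CPM in GV-6wk oocytes. Zp3 had 20725, 7903 and 2062 CPM in GV-12m oocytes, against 8497, 6171 and 13187 CPM in GV-6wk oocytes. Its values overlapped, with the highest and the lowest of the 6 both in GV-12m, and its difference of -0.34 had the opposite sign to its ratio of means, 1.10. Without GV-12m oocyte 3 the list's median was -1.07, with 1 gene above 0 and 4 below.

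The sequences before the starts of Zp3, Astl and Oog4 are shown because they set a zona gene whose levels overlapped beside 2 oocyte genes that were lower. They are the 250 bases before an annotated start, from RefSeq on GRCm38.p6, on the strand of the gene: Zp3 at chr5:135979855-135980104 (plus), Astl at chr2:127341386-127341635 (plus) and Oog4 at chr4:143450325-143450574 (minus). Capitals mark the E-box letters CANNTG, the form bound by basic helix-loop-helix factors such as the oocyte factor FIGLA, which mouse zona genes need. The pattern CANNTG is the same on both strands, though a single marked stretch such as CAGGTG need not be.
Zp3: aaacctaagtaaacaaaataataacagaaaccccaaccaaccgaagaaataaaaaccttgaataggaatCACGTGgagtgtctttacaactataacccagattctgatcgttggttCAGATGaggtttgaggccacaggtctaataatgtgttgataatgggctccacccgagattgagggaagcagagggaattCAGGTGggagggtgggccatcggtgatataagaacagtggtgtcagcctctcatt
Astl: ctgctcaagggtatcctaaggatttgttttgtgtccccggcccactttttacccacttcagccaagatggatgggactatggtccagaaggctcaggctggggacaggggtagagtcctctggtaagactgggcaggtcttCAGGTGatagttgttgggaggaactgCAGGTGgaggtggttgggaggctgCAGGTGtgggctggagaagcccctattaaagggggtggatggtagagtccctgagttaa
Oog4: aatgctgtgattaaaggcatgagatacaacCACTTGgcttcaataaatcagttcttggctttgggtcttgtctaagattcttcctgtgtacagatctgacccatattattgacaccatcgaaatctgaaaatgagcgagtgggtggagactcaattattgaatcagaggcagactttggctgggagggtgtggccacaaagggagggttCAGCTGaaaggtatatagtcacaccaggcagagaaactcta
The Zp3 and Astl windows hold 3 E-boxes each and the Oog4 window 2, and a second Astl start has none. Among all 32851 RefSeq promoter windows, 66.2% hold at least 1 and 12.2% hold 3 or more. Among the leading genes, 7 of 11 matched higher ones and 9 of 13 matched lower ones hold at least 1. Figla itself had 287, 117 and 31.1 CPM in GV-12m oocytes, against 123, 52.9 and 158 CPM in GV-6wk oocytes, so its values overlapped.

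Oocyte-specific gene families held members on both sides. The subcortical maternal complex, which the early mouse embryo needs to cleave, had 4 of 8 measured genes above 0 and 4 below, with a median of -0.03. Its member Tle6 had 503, 757 and 559 CPM in GV-12m oocytes, against 2109, 1627 and 762 CPM in GV-6wk oocytes. Nlrp2, another member, had 34.0, 65.8 and 86.6 CPM in GV-12m oocytes, against 24.1, 32.5 and 29.4 CPM in GV-6wk oocytes. These were the separated members on either side, with differences of -1.21 and 1.00. Ooep ran from 705 to 7218 CPM in GV-12m oocytes and from 1477 to 3213 CPM in GV-6wk oocytes. Of 12 oocyte NLRP paralogs 10 were above 0, with a median of 0.84. It was 0.53 without GV-12m oocyte 3, 0.49 without GV-6wk oocyte 1 and 0.45 within length bins. It rose to 1.11 without GV-12m oocyte 1 and 1.22 without GV-6wk oocyte 2. Nlrp9a had 34.4, 64.6 and 66.5 CPM in GV-12m oocytes, against 20.4, 28.4 and 18.8 CPM in GV-6wk oocytes. Reads of such paralogs can be split between copies, so single values are uncertain. Oog4, a gene of the oogenesin family, had 164, 441 and 258 CPM in GV-12m oocytes, against 1328, 1275 and 719 CPM in GV-6wk oocytes. The growth factor gene Gdf9 had 18918, 15548 and 1558 CPM in GV-12m oocytes, against 12469, 12511 and 12045 CPM in GV-6wk oocytes, with oocyte 3 alone far below.

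In the lists of the meiotic machinery medians lay near that of all genes, 0.12, or changed with single oocytes. Of 30 genes of the spindle checkpoint and kinetochore, 19 were above 0 (median 0.08), and 0 were separated, against 3.67% higher and 3.51% lower over all genes. Of 22 cohesin and cohesion genes, which hold sister chromatids together, 16 were above 0 (median 0.30), and without GV-12m oocyte 3 the count was 10 and the median -0.18. Within length bins the median was -0.07, and without GV-6wk oocyte 2 it was 1.06. Of 16 genes around cyclin B and Cdk1, 6 were above 0 (median -0.01), with 1 separated and higher and 1 separated and lower. Cyclin B1 (Ccnb1) had 488, 683 and 558 CPM in GV-12m oocytes, against 1136, 1003 and 555 CPM in GV-6wk oocytes. Its groups overlapped only through GV-6wk oocyte 3. Of 11 genes of cyclic AMP arrest and gap junctions 9 were above 0 (median 0.35), or 7 with a median of 0.16 without GV-12m oocyte 3. Without GV-6wk oocyte 2 the median was 0.86. The 1 separated gene among the 11 was Gnas, the G protein subunit that raises cyclic AMP. It had 144, 131 and 158 CPM in GV-12m oocytes, against 94.9, 85.4 and 108 CPM in GV-6wk oocytes.

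Lists on the storage and translation of maternal messages had more members above 0 than below, against 58.6% of all genes above 0. Of 79 cytosolic ribosomal protein genes 78 were above 0, with a median of 0.58. At least 2-fold higher were 5, a smaller share than the 9.45% of all genes. Separated and higher were 6, a larger share than the 3.67% of all genes. The median was 0.27 without GV-12m oocyte 1 and 0.20 without GV-6wk oocyte 2. Rpl29 had 203, 145 and 157 CPM in GV-12m oocytes, against 73.7, 49.7 and 106 CPM in GV-6wk oocytes. The list's median log2 level was 8.41, 7.51 and 7.36 in GV-12m oocytes and 7.28, 6.56 and 7.88 in GV-6wk oocytes, so GV-6wk oocyte 3 lay above 2 of the GV-12m oocytes. These genes are short, with a median length of 684 bases, and have many pseudogenes, which makes single values uncertain. Of 24 genes of mRNA storage and poly(A) control 18 were above 0 (median 0.51), with a median of 0.28 without GV-12m oocyte 3, 0.86 without GV-6wk oocyte 2, 0.31 without GV-6wk oocyte 3 and 0.26 within length bins. Ybx2, which packages stored messages, had 46.0, 69.5 and 36.0 CPM in GV-12m oocytes, against 32.2, 20.1 and 19.1 CPM in GV-6wk oocytes. The poly(A)-binding protein gene Pabpc4 went the other way, with 82.2, 122 and 101.5 CPM in GV-12m oocytes against 258, 250.4 and 176 CPM in GV-6wk oocytes. Both were separated. Of 31 deadenylation and decay genes 10 were at least 2-fold higher, against 9.45% of all genes. Without GV-12m oocyte 3 the number was 4 (12.903%), against 7.635% of all genes. The list's median was 0.52, with 0.19 without GV-12m oocyte 3, 1.15 without GV-6wk oocyte 2 and 0.24 within length bins. Of the 31 genes 0 were separated and higher and 1 separated and lower, against 3.67% and 3.51% of all genes. Of 40 translation factor genes 31 were above 0 (median 0.30), and 23 (57.5%) without GV-12m oocyte 3, against 60.6% of all genes without it. The cap-binding protein gene Eif4e had 401, 428 and 294 CPM in GV-12m oocytes, against 683, 543 and 471 CPM in GV-6wk oocytes.

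**Figure D3:**
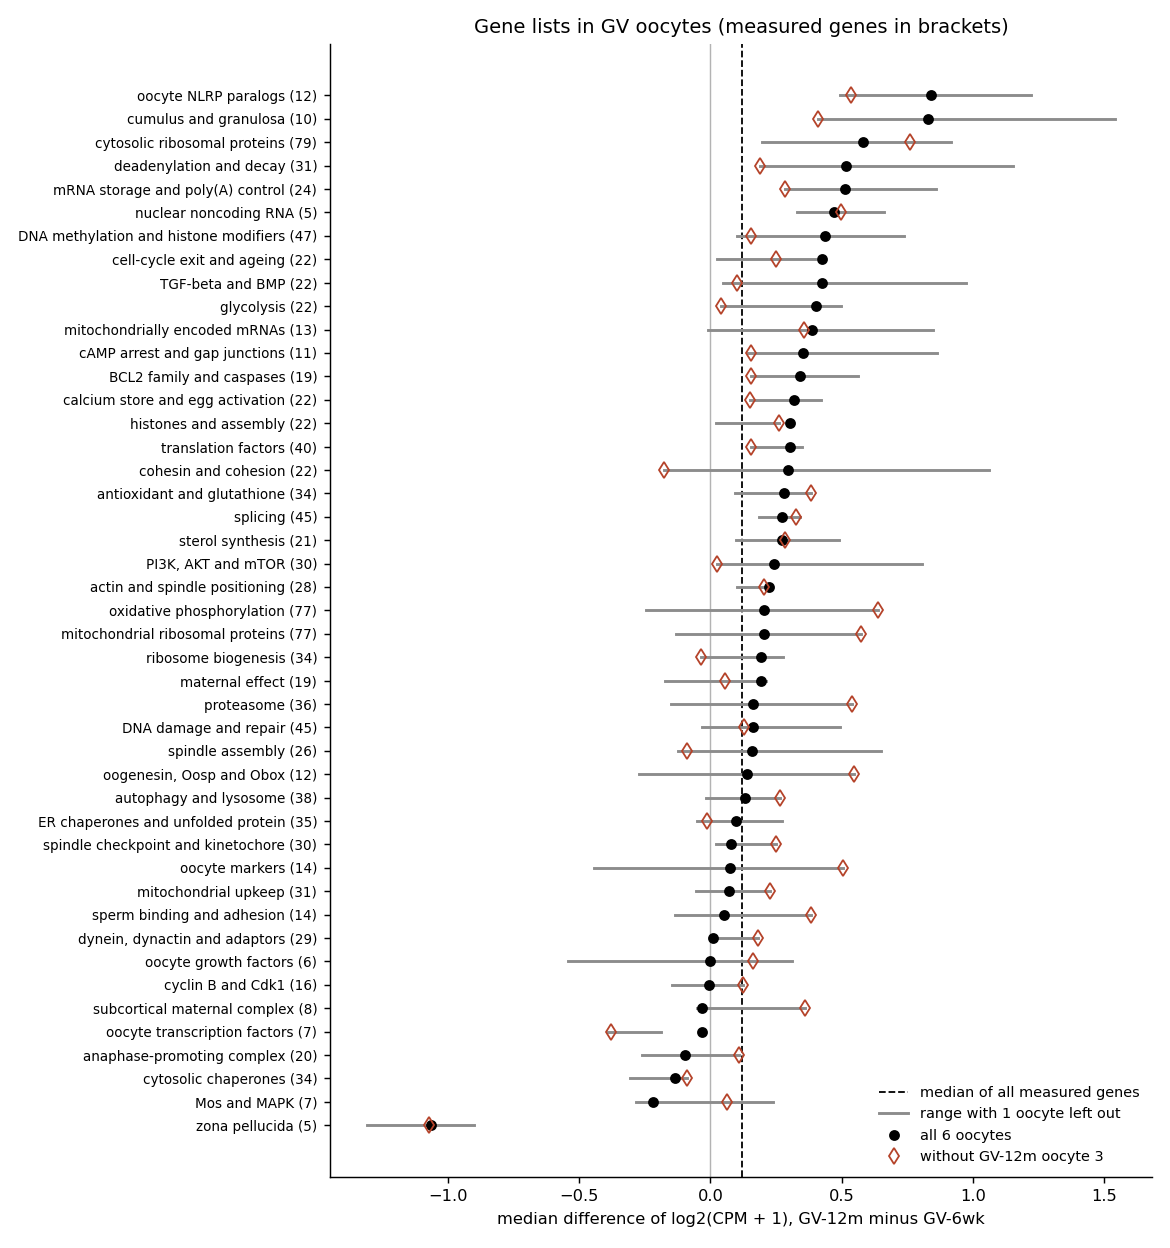
Each row is a gene list, with the median difference of its measured members (12 months minus 6 weeks, log2 scale) over all 6 oocytes (dots), without GV-12m oocyte 3 (diamonds) and the range with 1 oocyte left out (bars); the dashed line is the median of all genes. The zona pellucida list lies at -1.07, while the cytosolic ribosomal protein list lies at 0.58 against 0.12 for all genes.

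Mitochondrial lists depended on single oocytes. Of 77 oxidative phosphorylation genes 63 were above 0, with a median of 0.21. It was -0.25 without GV-12m oocyte 1, 0.64 without GV-12m oocyte 3 and -0.16 without GV-6wk oocyte 2. Mitochondrial ribosomal proteins behaved alike, with 61 of 77 genes above 0 and a median of 0.20, which was -0.13 without GV-12m oocyte 1. Of 34 antioxidant and glutathione genes 26 were above 0 (median 0.28), with a median of 0.15 without GV-12m oocyte 2 and 0.09 without GV-6wk oocyte 2. Sod1, the cytosolic superoxide dismutase gene, had 524, 472 and 273 CPM in GV-12m oocytes, against 1017, 547 and 684 CPM in GV-6wk oocytes. The thioredoxin gene Txn1 had 132, 90.2 and 119 CPM in GV-12m oocytes, against 73.5, 63.6 and 83.1 CPM in GV-6wk oocytes. They were separated in opposite directions, at -0.83 and 0.62.

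Of 34 cytosolic chaperone genes 13 were above 0 and 21 below (median -0.13). Cct6a is named for a subunit of the chaperonin that folds actin and tubulin, but GENCODE M21 annotates it as a processed transcript, so its counts may not be the subunit's message. It had 95.3, 105.1 and 97.8 CPM in GV-12m oocytes, against 30.8, 17.7 and 52.7 CPM in GV-6wk oocytes. Cct8, a subunit of that chaperonin, had 224, 315 and 279 CPM in GV-12m oocytes, against 464, 459.5 and 357 CPM in GV-6wk oocytes. Both genes were separated, with differences of 1.66 and -0.65. In the endoplasmic reticulum the disulfide isomerase gene Pdia3 had 88.7, 123 and 114 CPM in GV-12m oocytes, against 221, 253 and 211 CPM in GV-6wk oocytes. The stress transcription factor gene Atf4 had 187, 123 and 113 CPM in GV-12m oocytes, against 78.8, 85.9 and 88.8 CPM in GV-6wk oocytes.

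Among 45 DNA damage and repair genes 10 were at least 2-fold higher and 5 at least 2-fold lower, against 9.45% and 4.27% of all genes. Without GV-12m oocyte 3 the counts were 6 and 5, against 7.635% and 7.153% of all genes. Atrip, the partner of the checkpoint kinase ATR, had 12.2, 14.4 and 13.9 CPM in GV-12m oocytes, against 5.63, 2.91 and 2.83 CPM in GV-6wk oocytes. Xrcc6, the Ku70 subunit that binds broken ends, had 18.2, 61.6 and 50.9 CPM in GV-12m oocytes, against 144, 119 and 73.2 CPM in GV-6wk oocytes. Both were separated, at 1.64 and -1.46. The deacetylase gene Sirt1 had 12.9, 9.40 and 10.6 CPM in GV-12m oocytes, against 1.88, 5.58 and 1.42 CPM in GV-6wk oocytes (difference 1.73). In ribosome biogenesis Ltv1 had 40.9, 83.4 and 56.8 CPM in GV-12m oocytes, against 129.8, 123 and 128 CPM in GV-6wk oocytes. That list's median was 0.19 and its mean -0.0042, so they differ in sign, and the median was -0.05 within length bins.

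Separated genes on the lower side were most frequent in the middle length class. Over 5 length classes of equal size, with median lengths of 814, 1325, 1860, 2680 and 4428 bases, they made up 1.79, 3.03, 7.69, 3.49 and 1.54% of genes, and on the higher side 3.90, 3.20, 3.03, 4.74 and 3.49%. Of the 15 leading lower genes 11 were between 1500 and 2600 bases long, as were 4 of the 15 leading higher genes and 31.2% of all measured genes. Mean fragment lengths also differed, as inferred from the deposited length and effective length of long genes and not measured. They were 274.58, 292.92 and 302.96 bases in GV-12m oocytes and 251.88, 249.69 and 269.8 bases in GV-6wk oocytes, with no overlap. Levels also leaned with length within each age: the longest class minus the shortest gave -1.06, 0.01 and 1.38 in GV-12m oocytes and -0.42, 1.04 and -0.89 in GV-6wk oocytes, as median deviations from the mean of the 6. The part of length and fragment size in these differences was not tested.

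**Figure D4:**
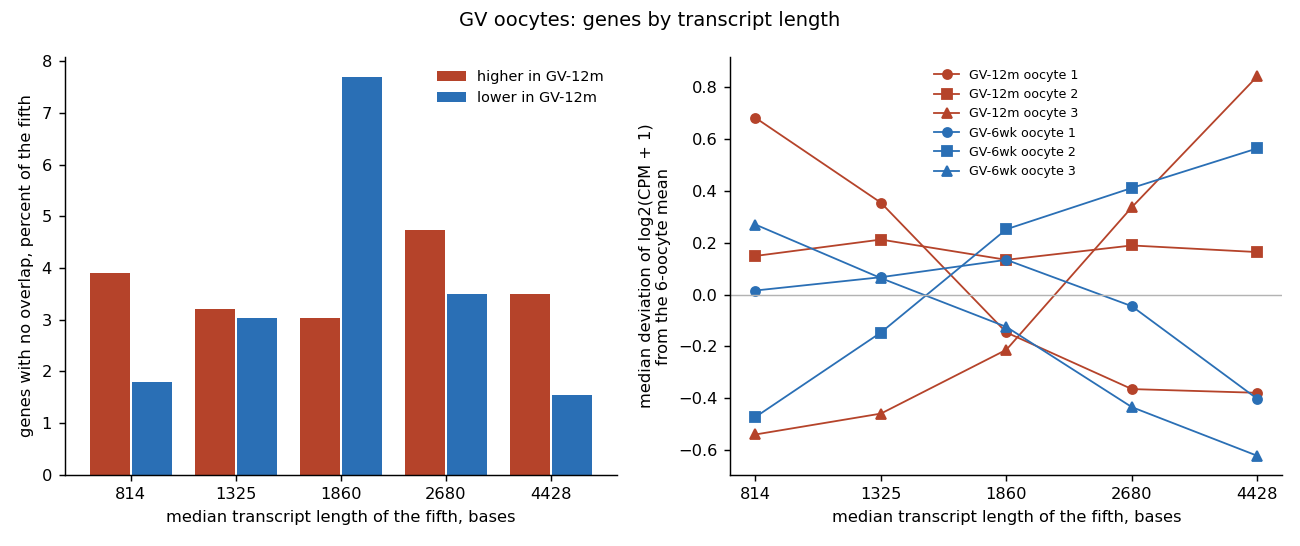
On the left, bars give the percent of separated genes, higher or lower in GV-12m, in 5 classes of transcript length in bases, and on the right, lines give each oocyte's median deviation of log2(CPM + 1) from the mean of the 6. The bar for lower genes is tallest in the middle class, at 7.69%, and the lines of GV-12m oocytes 1 and 3 cross.

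A few genes of the GV comparison differed by age in the same direction in MII oocytes. The comparisons share no oocyte but share title prefixes within an age, so they may not be independent repeats of the age difference. Across genes, which are not independent replicates, the age difference in GV oocytes had a Spearman rho of 0.07 with that in IVM-MII oocytes and 0.09 with that in MSC-IVM-MII oocytes. No overlap in the same direction in all 3 kinds of oocyte was seen in 29 genes (0.241%), 21 higher and 8 lower. Of the leading genes these were Bicd1, Cgref1, Ing4 and Tmem214 on the higher side and Dnajb14, Prl8a2 and Wtap on the lower side. In deposited TPM the GV oocytes of the ages overlapped in Tmem214 and Wtap of these. Other genes called separated above, which is by CPM, also overlapped in TPM, among them Ptov1, Eef2, Pcbp2, Nlrp2 and Gnas. Tmem214 had 4.78, 13.46 and 19.39 TPM in GV-12m oocytes, against 8.9, 10.48 and 2.86 TPM in GV-6wk oocytes. Wtap had 40.62 TPM in GV-12m oocyte 3, against 33.04 TPM in GV-6wk oocyte 3. Bicd1 had 25.2, 11.0 and 11.0 CPM in IVM-MII-12m oocytes, against 0, 0 and 0.285 CPM in IVM-MII-6wk oocytes. Tmem214 had 32.3, 36.6 and 21.2 CPM in IVM-MII-12m oocytes, against 0 CPM in each IVM-MII-6wk oocyte. Its GV-6wk oocytes, at 20.4, 18.7 and 7.43 CPM, did hold it. Wtap had 204, 192 and 224 CPM in IVM-MII-12m oocytes, against 957, 489 and 624 CPM in IVM-MII-6wk oocytes. The zona list's median was 0.57 in IVM-MII oocytes and -0.47 in MSC-IVM-MII oocytes.

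**Figure D5:**
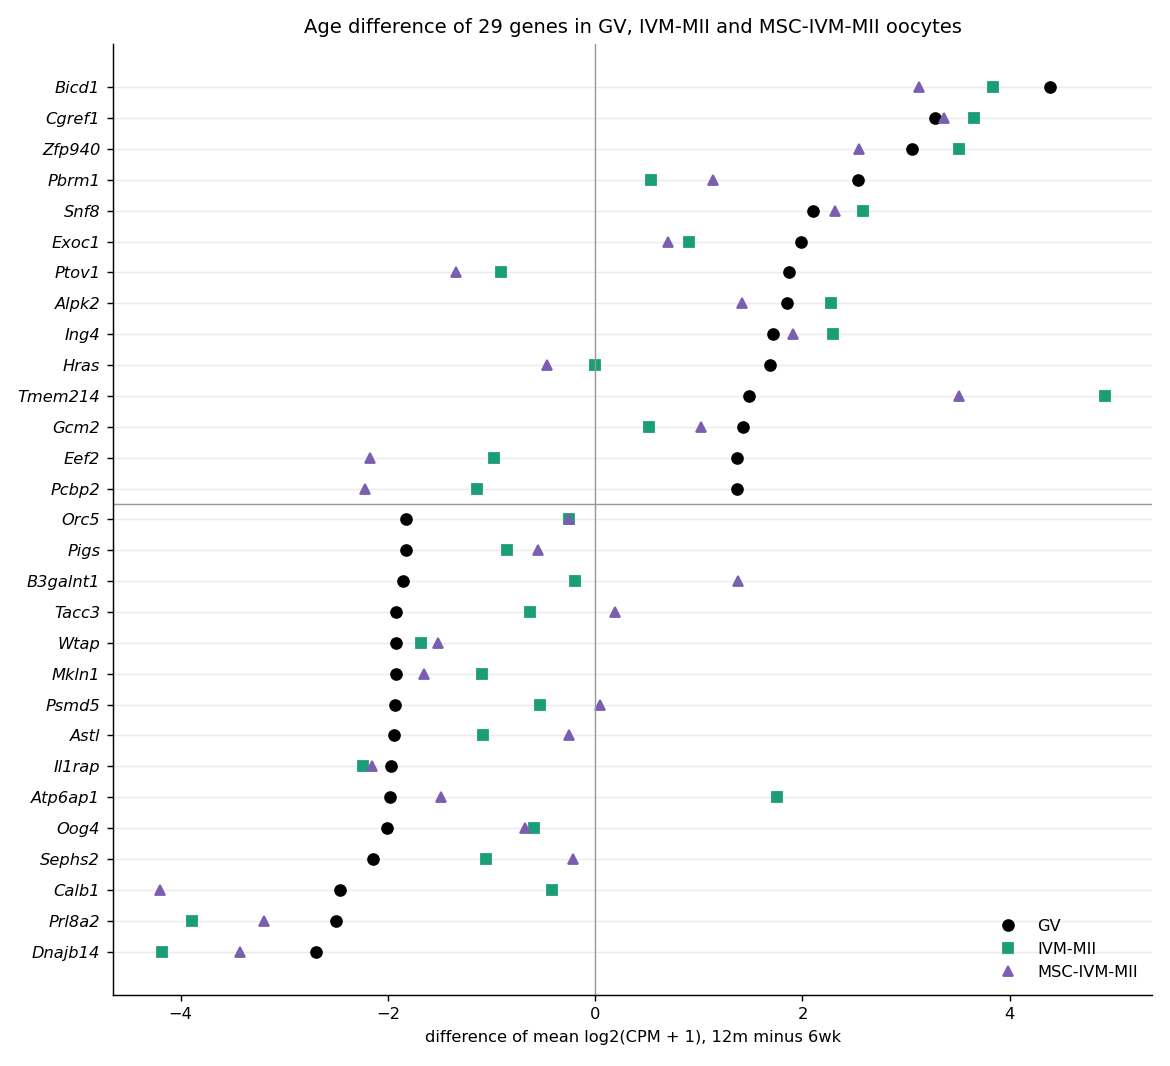
The plot sets the age difference (12 months minus 6 weeks, log2 scale) of the same genes in GV oocytes beside that in IVM-MII and MSC-IVM-MII oocytes. Bicd1 lies at 4.39, 3.84 and 3.12 and Dnajb14 at -2.70, -4.18 and -3.43, while Eef2 lies at 1.37, -0.97 and -2.18.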

How the data were processed

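Single oocytes were sequenced by SMART-seq2. The expected counts, TPM and FPKM of each gene were deposited by the authors, per the file headers. Reads were checked with FastQC 0.11.8 and trimmed by Trim Galore 0.4.5, and TopHat2 2.1.1 with Cufflinks and the build GRCm38.p5 (mm10) are also listed, per the submitters' processing notes. What made the expected counts, and whether strand was used, is not given in the sources used here, so antisense and overlapping genes are uncertain. Deposited TPM served as an alternative unit, and deposited FPKM was not used.

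Expected counts were rounded. Scaling was by the TMM method of edgeR 4.0.16 under R 4.3.3, over all 18 libraries, and filterByExpr left 12037 genes. Differences used log2(CPM + 1). The calculation was tested on simulated data. GENCODE M21 (GRCm38) matched 46488 of 47069 identifiers. Tables were handled in Python 3.11.15 with pandas 2.3.3, NumPy 2.4.6 and SciPy 1.17.1, and plots were drawn with Matplotlib 3.10.9. Totals of 3096673 to 9193559 counts per GV oocyte limit the precision of weak genes.

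Named genes were the 15 largest differences each way among separated protein-coding genes that averaged 20 CPM or more at 1 age, up to 3 genes from each of 49 lists at 10 CPM or more, and all zona pellucida and subcortical maternal complex genes. One of the leading higher genes is not reported here. Other list genes in the text were chosen after their values were seen. Of 1328 list symbols 1326 matched. The members and lists were chosen with earlier results of these data known. Alternatives were DESeq2 1.42.0 size factors, TMM over the GV libraries alone, TPM, other filters and pseudocounts, summed counts, length bins and leaving out each oocyte.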

Additional observations from a re-analysis of the deposited data

Results flagged for a closer look

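Ptov1 and Nlrp2 were separated by age in CPM in opposite directions in GV and MSC-IVM-MII oocytes. In deposited TPM the GV oocytes of the ages overlapped in both genes. Ptov1 had 4.97 TPM in GV-12m oocyte 1, against 6.12 TPM in GV-6wk oocyte 2. Nlrp2 had 6.12 and 12.5 TPM in the same oocytes. The Ptov1 age difference was 1.87 in GV and -1.35 in MSC-IVM-MII oocytes. That of Nlrp2 was 1.00 in GV and -1.44 in MSC-IVM-MII oocytes. The difference between the kinds of oocyte was not tested.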

How the results depend on the processing

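No paired analysis was possible because the labels number no oocytes across the ages. There were 1138 genes at least 2-fold higher and 514 genes at least 2-fold lower. Their numbers were 485 and 620 with deposited TPM, 242 and 272 with a mean of at least 20 CPM, 217 and 216 with a pseudocount of 5, and 722 and 784 within length bins, which were chosen after seeing the data. There were 442 genes with no overlap, higher, and 422 genes with no overlap, lower. Their numbers were 292 and 500 with TMM over the GV libraries alone and 94 and 253 with a mean of at least 20 CPM. With no filter 744 were higher, and within length bins 785 were lower. The median over all genes was -0.02 with TPM. Leaving out 1 oocyte gave 919 to 2169 genes at least 2-fold higher, 480 to 998 lower, and 685 to 1682 higher and 604 to 1339 lower with no overlap, which fewer oocytes make easier by construction.

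Leaving out 1 or another oocyte turned the sign of 23 of 49 list medians, all within 0.39 of 0, and of 15 of 163 named genes, 1 of them past 2-fold (Ldha). Within length bins 10 list medians and 2 named genes turned. Lists with at least 75% of members on 1 side and the gene past 2-fold are given here. The median of the list oxidative phosphorylation ran from -0.25 (without GV-12m oocyte 1) to 0.64 (without GV-12m oocyte 3). That of the list mitochondrial ribosomal proteins ran from -0.13 to 0.57 with the same oocytes left out. Without GV-6wk oocyte 2 these were -0.16 and -0.08. The list mitochondrially encoded mRNAs ran from -0.0074 (without GV-6wk oocyte 2) to 0.85 (without GV-6wk oocyte 3), and gene Ldha from -0.32 (without GV-12m oocyte 3) to 2.16 (without GV-12m oocyte 1). The causes were not tested. Of 978 such values of named genes 977 were classed as moved by less than the SD over oocytes, though some of them turned sign. For a single gene, leaving out 1 of 3 oocytes cannot move the difference by that SD, so this count tells nothing of stability. Of 294 list values 281 moved by less than the SD. Depth limits weakly expressed genes.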

Other observations

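In the lists on chromatin, sterol synthesis and growth factor signalling, fewer genes passed 2-fold without GV-12m oocyte 3. Over all genes 9.45% were at least 2-fold higher, and 7.635% without GV-12m oocyte 3. Of 47 DNA methylation and histone modifier genes 9 were at least 2-fold higher, and 2 (4.255%) without that oocyte. Of 21 sterol synthesis genes 8 were at least 2-fold higher, and 1 (4.762%) without it. Of 22 TGF-beta and BMP genes 5 were at least 2-fold higher, and 1 (4.545%) without it. The BMP receptor gene Bmpr2 had 0.667, 3.89 and 70.4 CPM in GV-12m oocytes, against 2.68, 13.8 and 0.708 CPM in GV-6wk oocytes. The transcription factor gene Foxo1 had 15.3, 20.3 and 171 CPM in GV-12m oocytes, against 3.75, 52.6 and 5.31 CPM in GV-6wk oocytes. Oocyte 3 was the highest of all 6 in both genes. Of 45 splicing genes 38 were above 0 (median 0.27), and 31 without GV-12m oocyte 3 (median 0.33). Of 363 lincRNA genes 5 were separated and higher and 19 separated and lower (1.38 and 5.23%), against 3.67 and 3.51% of all genes.

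Over all 18 oocytes, whose kinds share title prefixes within an age, the 9 of 12 months lay above the 9 of 6 weeks in 9 genes. They lay below in 1, Dnajb14. Of the protein-coding ones, Bicd1, Cgref1 and Synb were higher. The others were a mitochondrial tRNA and predicted genes, some of them antisense to or overlapping other genes, whose values are uncertain without strand. Cgref1 and Tmem214 lie 53963 bases apart on chromosome 5, on opposite strands.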
